A study of Mus musculus with 123 samples.

Results

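The 21 libraries described here are those whose titles give the diet as HFD and the photoperiod as Short light, and they make up 17.1% of the liver libraries in the series. They came from livers of mice on a high-fat diet (HFD) under a short-light photoperiod, collected at zeitgeber time (ZT, hours counted from lights on) ZT0, ZT4, ZT8, ZT12, ZT16 and ZT20. ZT0, ZT4 and ZT8 had 4 libraries each and ZT12, ZT16 and ZT20 had 3 each. Titles carry no replicate number, so the libraries of each time were numbered here in their order in the series. All 6 groups shared the diet, the photoperiod and the tissue, so the time of collection was the only labelled difference. The labels give no strain, sex, age, fat content, feeding schedule, number of light hours or animal names, and the hour of lights off is therefore not given here. Values are log2 CPM (read counts scaled to the size of each library), so that 1 unit is a 2-fold difference. Since nothing names separate animals, p-values measure only the spread between these libraries, which may be technical.

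The mammalian clock is a loop of transcription. ARNTL pairs with CLOCK or NPAS2, binds E-box motifs and switches on its own repressors, the PER and CRY proteins. It also switches on the nuclear receptors NR1D1 and NR1D2, which repress Arntl, Npas2 and Nfil3. DBP, TEF and HLF act on D-box motifs, where NFIL3 competes with them. In the liver this loop and the daily feeding rhythm time the handling of sugar, fat, bile acids, amino acids and foreign compounds.

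The libraries were first checked for tissue, admixture and clock phase. Mean log2 CPM of 10 hepatocyte markers lay between 11.80 and 12.09 in every library. ZT8 replicate 1 had a mean of 5.21 over 13 skeletal muscle markers, and ZT8 replicate 2 a mean of 5.31 over 12 pancreas acinar markers, against medians over the 21 libraries of -0.14 and -2.13. In ZT8 replicate 1 the adipocyte markers were also at their highest, 3.70 against a median of 2.08. Of the 11 marker lists, 1 gene passed the time test, the cholangiocyte gene Sox9. In bulk tissue, fewer cells of a type and less RNA per cell cannot be told apart. Libraries were then placed by the root mean square distance of 15 clock genes from the mean of each time, leaving out the library itself: 19 of 21 lay nearest their own time. ZT0 replicate 2, labelled ZT0, lay 1.9 log2 from the other ZT0 libraries and 0.59 from the ZT12 mean. Its Nr1d1 was 2.19, where the other ZT0 libraries had 6.75 to 7.51. ZT20 replicate 2 lay 1.37 from its own time and 1.18 from the ZT0 mean. Both stay in the main values under their labels. Of the genes named here that passed the time test, 0 lost the call without ZT0 replicate 2. Without the 2 ZT8 libraries 16 did not pass: Atf4, Cebpd, Cirbp, Cyc1, Egr1, Etfdh, Hspa1a, Igfbp4, Ncl, Nmnat3, Nop2, Ppfibp1, Rbm12, Rrs1, Stat5a and Zbtb16, with adjusted p between 0.0508 and 0.2 (limma). Without ZT20 replicate 2 the genes lost were Etfdh, Ncl, Nmnat3, Rbm12 and Rrs1 (adjusted p 0.0542 to 0.0811). The part of the muscle, fat and pancreas markers in these results was not tested.

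The clock genes Npas2 and Dbp had the widest daily spans of the genes that passed the time test (6.89 and 6.35 log2), and ZT8 held the highest mean of more of these genes than any other time. Of 13455 genes that reached 1 CPM in 3 or more of the 21 libraries, 1684 (12.5%) differed between the 6 times (limma, moderated F test, Benjamini-Hochberg adjusted p under 0.05), and 2380 (17.7%) passed the test for a 24 h cosine. Either test called 2630 genes and both called 1434. Most differences were small: 599 of the 1684 spanned more than 2-fold between their highest and lowest time mean and 152 more than 4-fold, and their median span was 0.79 log2 against 0.38 over all genes tested. Median amplitude, which is the distance of the fitted cosine's crest from its mean, was 0.30 log2 among rhythmic genes and 0.13 among all, and 133 rhythmic genes exceeded 1. Without ZT0 replicate 2 the time test called 2193 genes, 1666 of them shared with the 1684, and the cosine test 3237. With both ZT8 libraries left out the counts were 1001 and 1715, and without ZT20 replicate 2 they were 1584 and 2291.

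ZT8 held the highest mean of 488 called genes and the lowest mean of 462, more than any other time in both directions. ZT20 followed with 362 highest and 457 lowest, then ZT4 with 315 and 394, ZT16 with 311 and 181, and ZT12 with 194 and 156. Only 14 called genes were highest at ZT0 and 34 lowest there, numbers that became 155 and 184 without ZT0 replicate 2. Of the 488 genes highest at ZT8, 334 were lowest at ZT20. With all 21 libraries, 915 of 2380 rhythmic genes (38.4%) had a fitted peak between 4 and 10 h and 729 (30.6%) between 16 and 20 h. The 2 windows differ in width, and an even spread of peaks would put more genes in the wider first window. This gathering was weaker without ZT0 replicate 2, where the windows held 30.6% and 23.2% of 3237 genes. Outside them, the share that peaked from 0 to 2 h went from 2.69% to 5.96%, and from 22 to 24 h from 3.32% to 6.73%. With the 2 ZT8 libraries left out, ZT8 again held the most genes at their highest, 246 of 1001, and ZT4 the most at their lowest, 282.

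The functions differed in how many of their genes passed the time test, beside the 12.5% of all genes. Every core clock and output gene passed, as did 61.5% of the glucocorticoid response genes and 61.1% of the heat shock chaperones. Sugar handling (45%), bile acids and sterol transport (40%), gluconeogenesis (38.9%), lipid droplets and triglyceride (38.1%), autophagy (36.8%), drug metabolism (30.4%) and amino acid catabolism (29.6%) followed. Cholesterol synthesis (4.17%), the unfolded protein response (5%), the acute phase (4.76%) and the nuclear respiratory chain (4.76%) lay below the share of all genes. Without ZT0 replicate 2, cholesterol synthesis lay above it, with 20.8% beside 16.3% of all genes. These shares are descriptions, with no test of a list.

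**Figure D1:**
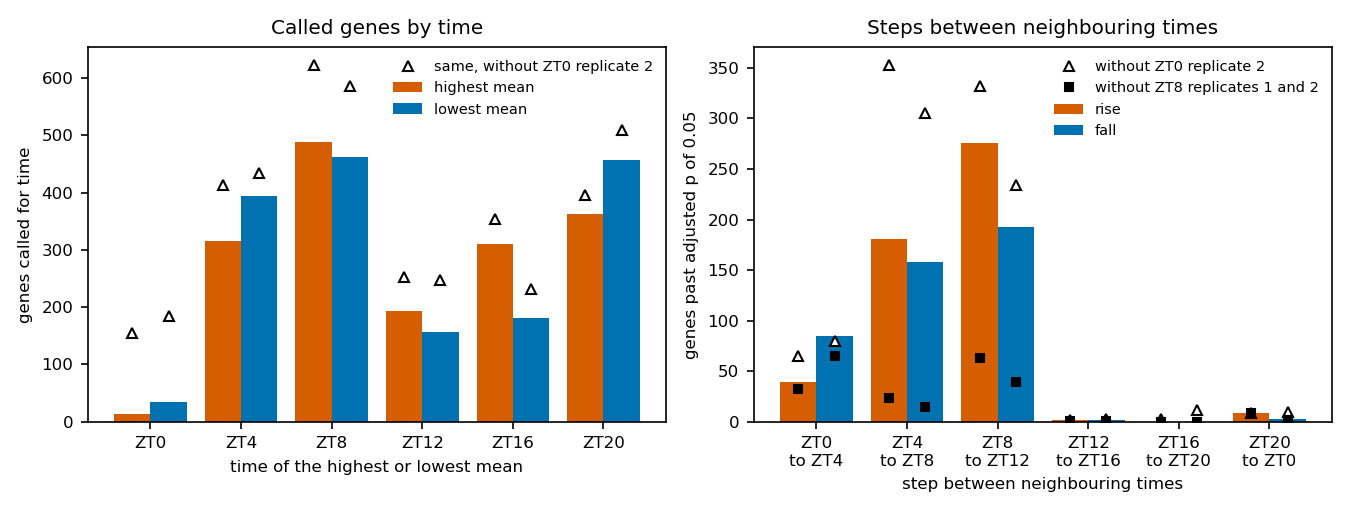
Left, number of genes called for time by the time of their highest (orange) and lowest (blue) mean, and right, number of genes that rose or fell between neighbouring times. Open triangles leave out ZT0 replicate 2 and black squares leave out ZT8 replicates 1 and 2; ZT8 has the tallest pair of bars on the left (488 and 462), and the steps into and out of ZT8 the tallest on the right.

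Neighbouring times were then compared directly (limma, moderated test of each step). From ZT0 to ZT4, 39 genes rose (0.29%) and 85 fell (0.632%). From ZT4 to ZT8, 181 rose (1.35%) and 158 fell (1.17%). With all 21 libraries the step from ZT8 to ZT12 had the most calls, with 276 rises (2.05%) and 193 falls (1.43%). Later steps had few calls, which does not show that few genes changed, because ZT12, ZT16 and ZT20 had 3 libraries each. From ZT12 to ZT16, 2 rose (0.0149%) and 2 fell (0.0149%), and from ZT20 to ZT0, 9 rose (0.0669%) and 3 fell (0.0223%). Between ZT16 and ZT20 limma called 0 rises (0%) and 0 falls (0%), and limma-voom on the recovered reads called 0. Over this step 911 genes had an unadjusted p under 0.05 in limma. The means of Nr1d1 (3.04 to 6.36) and Thrsp (9.15 to 6.36) moved over it without a call. The 2 ZT8 libraries bear on the steps beside them: without these, ZT4 to ZT8 had 23 rises and 15 falls, and ZT8 to ZT12 63 and 39. ZT0 to ZT4 then had 32 rises and 65 falls, more than ZT4 to ZT8 and close to ZT8 to ZT12. Without ZT0 replicate 2 the steps into and out of ZT8 had 353 and 305, and 332 and 234. In that setting ZT12 to ZT16 had 2 rises and 3 falls, ZT16 to ZT20 3 and 12, and ZT20 to ZT0 9 and 10.

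The leaders of each step are given for called genes with a mean of at least 2 log2 CPM. From ZT0 to ZT4 the largest rises were those of Usp2, a ubiquitin protease (2.37 ± 0.33, SE), and Upp2, a uridine phosphorylase (2.11 ± 0.29), and the largest falls those of Arntl (-2.81 ± 0.38) and Elovl3, an elongase of very-long-chain fatty acids (-2.31 ± 0.34). From ZT4 to ZT8, Clic3 (2.38 ± 0.48) and the cell-cycle inhibitor Cdkn1a (2.35 ± 0.57) rose most, and the immediate early gene Junb (-1.93 ± 0.33) and the pro-apoptotic Bmf (-1.82 ± 0.38) fell most. From ZT8 to ZT12 the leaders were Mvd of the mevalonate pathway (2.55 ± 0.58) and Depp1 (2.49 ± 0.68) upwards, and Zbtb16 (-2.46 ± 0.53) and the glycolytic regulator Pfkfb3 (-2.44 ± 0.27) downwards. Mvd passed this step (adjusted p = 0.0186) though not the test over all 6 times (adjusted p = 0.0623). Loxl4, a lysyl oxidase family member, rose from ZT12 to ZT16 by 2.39 ± 0.32, while Per3 (-2.51 ± 0.43) and the kinase Snrk (-0.60 ± 0.09) fell. From ZT20 to ZT0, Usp2 (2.61 ± 0.36) and Per3 (2.86 ± 0.40) rose, and Loxl4 (-2.13 ± 0.30) and choline kinase Chka (-1.51 ± 0.28) fell.

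All 15 core clock and output genes passed both tests, against 12.5% and 17.7% of all genes, and all 15 passed the time test again without ZT0 replicate 2 and without the 2 ZT8 libraries. Among the activators, Npas2 had the largest amplitude of the list. Its log2 CPM was -0.82, -0.66, 0.56 and 1.44 at ZT0, -2.49, -1.19, -2.28 and -2.01 at ZT4, -2.28, -2.36, -3.05 and -2.44 at ZT8, 0.00, 2.21 and 0.71 at ZT12, 4.35, 4.20 and 4.53 at ZT16, and 4.01, 2.87 and 4.25 at ZT20. ZT16 and ZT20 libraries all lay above the others, and those of ZT4 and ZT8 were the lowest, toward the floor of -3.61 that the deposited values have. The span was 6.89 ± 0.53 log2 (SE, adjusted p = 4.66e-07), with an amplitude of 3.63 ± 0.22 and a fitted peak at 17.7 ± 0.235 h.

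Arntl, which encodes the shared partner, was 2.30, 4.67, 3.13 and 3.97 at ZT0, 1.65, 0.03, 0.40 and 0.73 at ZT4, 2.33, 2.11, 2.61 and 2.89 at ZT8, 4.88, 5.07 and 4.95 at ZT12, 5.24, 5.31 and 5.60 at ZT16, and 5.15, 4.81 and 5.63 at ZT20. The ZT4 libraries were the lowest and overlapped no other time, and from ZT12 to ZT20 the gene stayed between 4.81 and 5.63. Its amplitude was 2.32 ± 0.22 and its peak 16.7 ± 0.363 h (adjusted p for the cosine = 1.17e-06). Clock moved less, from 4.82 ± 0.10 (SD, n = 4) at ZT4 to 6.18 ± 0.04 (SD, n = 3) at ZT16. Nfil3, the D-box repressor, followed the same course with 3.67 ± 0.81 at ZT4 and 5.88 ± 0.30 at ZT16 (adjusted p = 0.00483).

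Of the receptors that repress Arntl, Nr1d1 had the earliest fitted peak of the clock list counted from ZT0 (0.563 h). Nr1d1 was 6.75, 2.19, 7.51 and 7.18 at ZT0, 6.17, 6.54, 6.99 and 6.13 at ZT4, 4.16, 4.67, 3.72 and 3.04 at ZT8, 2.34, 1.19 and 1.88 at ZT12, 2.29, 3.06 and 3.77 at ZT16, and 6.03, 6.90 and 6.17 at ZT20. Leaving out the library at 2.19, its ZT0 mean was 7.15 ± 0.38 (n = 3) in place of 5.91 ± 2.50 (n = 4), its highest time moved from ZT4 to ZT0, and its amplitude was 2.77 ± 0.17 in place of 2.29 ± 0.37. Nr1d2 was highest at ZT4, 6.98 ± 0.21 (SD, n = 4), and lowest at ZT16, 3.77 ± 0.16 (SD, n = 3), with no overlap of either time with the rest.

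Of the repressors, Per3 and Per1 were highest at ZT4, Per2 at ZT8 and Cry1 at ZT12. Per3 was 6.35, 6.25, 6.48 and 6.51 at ZT4 and 1.26, 3.42 and 1.05 at ZT20, a span of 4.49 ± 0.40 (adjusted p = 1.92e-06). The ZT20 value of 3.42 was that of replicate 2, and without it Per3 had a ZT20 mean of 1.15. Per1 went from 5.99 ± 0.31 at ZT4 to 2.06 ± 0.45 at ZT20, and its ZT20 libraries lay below all others. Per2 was 7.13, 6.85, 7.10 and 7.11 at ZT8, above every other library, and 4.08 ± 0.33 at ZT20. Cry1 was 5.74, 5.67 and 5.62 at ZT12 against 2.88, 2.64, 2.80 and 3.13 at ZT4 and spanned 2.81 ± 0.43, whereas Cry2 spanned only 0.72 ± 0.12.

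Dbp had the widest range of the D-box factors. Its log2 CPM was 5.68, 2.27, 6.09 and 5.02 at ZT0, 6.11, 6.64, 7.02 and 6.61 at ZT4, 5.31, 5.42, 4.58 and 4.36 at ZT8, 1.81, 2.07 and 2.39 at ZT12, 0.66, -0.03 and 0.11 at ZT16, and 1.14, 4.34 and 0.10 at ZT20. Libraries of ZT4 stood above all others, and both the low ZT0 value and the high ZT20 value came from replicate 2 of its time. The amplitude was 3.08 ± 0.30 with a peak at 4.13 ± 0.374 h. A single cosine accounted for 99.8% of the variation between the 6 Dbp means. Tef (1.28 ± 0.09 at 5.58 ± 0.269 h) and Hlf (0.46 ± 0.08 at 6.42 ± 0.655 h) peaked soon after it with smaller amplitudes.

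**Figure D2:**
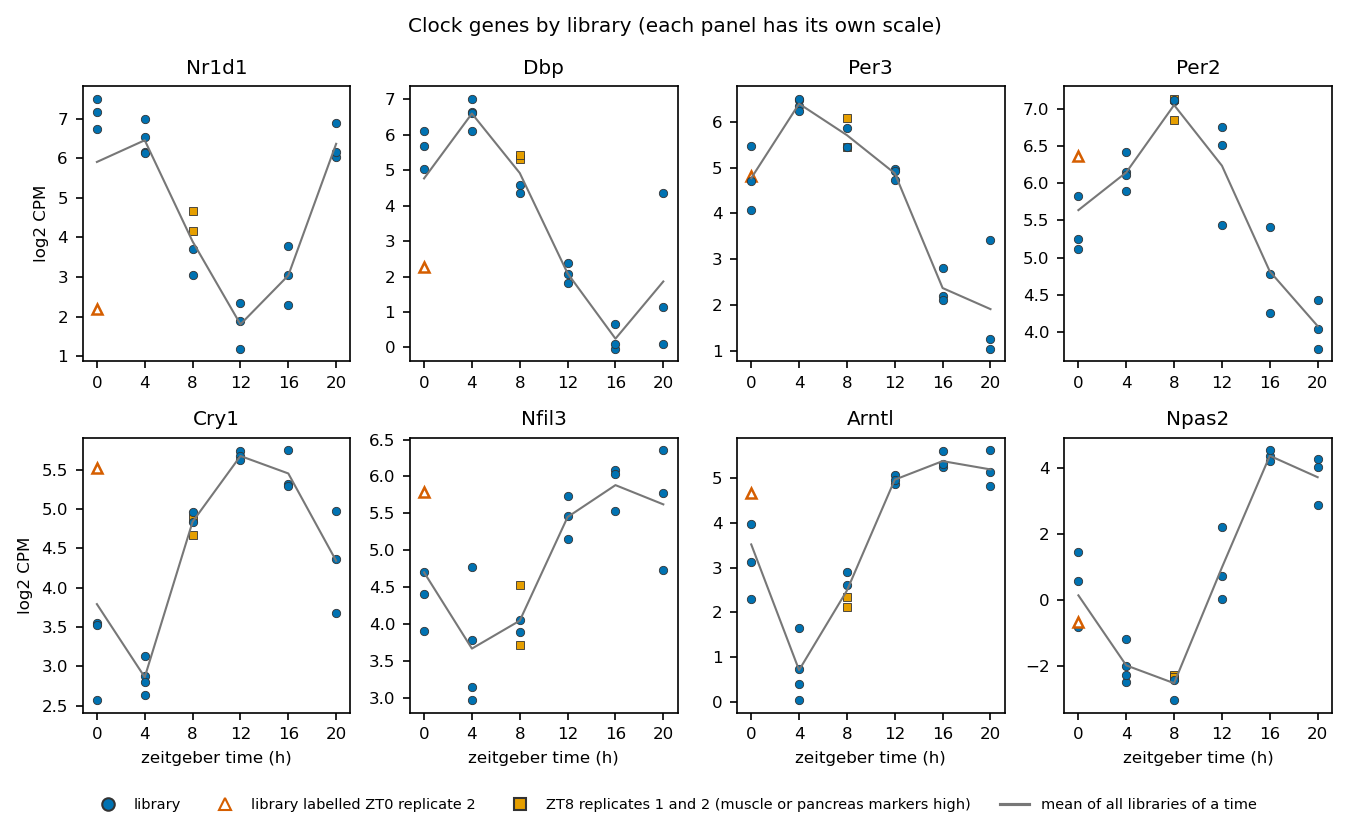
Log2 CPM of 8 clock genes in each of the 21 libraries against zeitgeber time in hours, with a line through the means of each time. The open triangle, ZT0 replicate 2, sits apart from the other ZT0 libraries in Nr1d1, Dbp and Cry1. The highest means pass from Nr1d1, Dbp and Per3 at ZT4 through Per2 at ZT8 and Cry1 at ZT12 to Arntl, Nfil3 and Npas2 at ZT16.

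Ordered by fitted peak, 14 of these genes ran Nr1d1 (0.563 h), Nr1d2 (3.63 h), Dbp (4.13 h), Tef (5.58 h), Per3 (5.87 h), Hlf (6.42 h), Cry2 (6.5 h), Per1 (7.13 h), Per2 (7.36 h), Cry1 (13.9 h), Arntl (16.7 h), Nfil3 (16.9 h), Clock (17.3 h) and Npas2 (17.7 h). Standard errors were 0.23 to 0.66 h. Nr1d2 and Dbp, the neighbours from Tef to Per2 and those from Arntl to Npas2 peaked within the sum of their standard errors of each other, so their order is not settled. Of 9 tested clock modifiers, 5 passed the time test (55.6%, beside 12.5% of all genes). Ciart, a repressor of the loop, reached 4.23, 4.31, 4.94 and 5.32 at ZT4 and -0.67, -0.79 and -1.18 at ZT20, with an amplitude of 2.97 ± 0.22. Bhlhe41, which competes for E-boxes, was 2.97 ± 0.69 at ZT4 and -0.54 ± 0.58 at ZT12, and Bhlhe40 was 8.51 ± 0.37 at ZT4 and 6.60 ± 0.02 at ZT20.

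**Figure D3:**
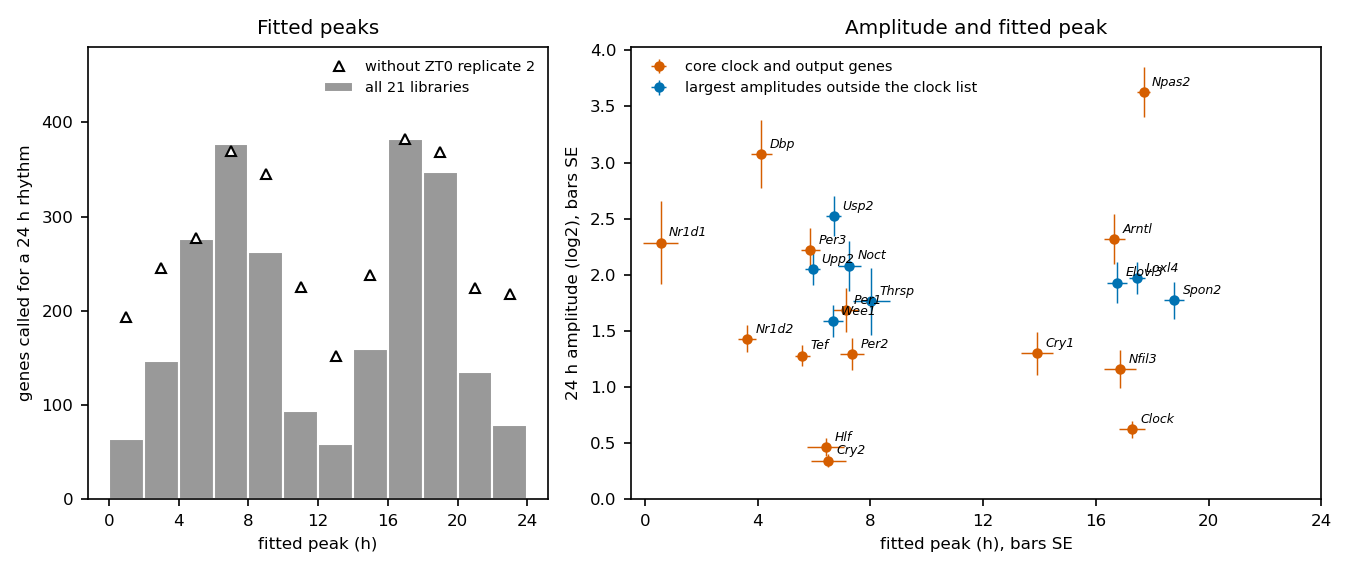
Left, number of rhythmic genes by fitted peak in bins of 2 h, with open triangles for the counts without ZT0 replicate 2. Right, 24 h amplitude in log2 units against fitted peak for 14 clock and output genes (orange) and the 8 largest amplitudes outside that list among genes with a mean of at least 2 log2 CPM (blue), bars giving standard errors; Npas2 is highest at 3.63, and all 8 blue genes peak between 4 and 10 h or 16 and 20 h.

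Promoter letters are shown for the clock genes and modifiers in which a searched motif was found, since the E-box and the D-box are elements on which some of the proteins described above act. The stretch upstream of each start in RefSeq (GRCm38.p6) was searched on both strands for the E-box CACGTG, and for the D-box as TTATGTAA or TTACGTAA. Of 10257 tested genes with a promoter entry, 1016 (9.91%) had an E-box and 81 (0.79%) a D-box in any listed promoter. Among 13 clock genes with an entry, Cry1, Per1 and Tef had an E-box and Per3 a D-box. Tef had an E-box in another listed promoter too (chr15:81811256-81811301), not shown. Only the short stretch before each start and these exact letters were searched, so sites elsewhere or with other letters would be missed. Motifs are in capitals, each sequence 5′ to 3′ on the gene's strand.
Ciart, chr3:95882247-95882364, minus strand: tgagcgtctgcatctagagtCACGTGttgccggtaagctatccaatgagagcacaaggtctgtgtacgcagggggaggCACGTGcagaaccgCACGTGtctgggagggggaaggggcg
Bhlhe41, chr6:145865548-145865593, minus strand: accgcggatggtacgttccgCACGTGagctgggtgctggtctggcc
Per1, chr11:69098763-69098808, plus strand: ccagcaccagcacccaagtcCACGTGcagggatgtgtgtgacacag
Cry1, chr10:85185089-85185134, minus strand: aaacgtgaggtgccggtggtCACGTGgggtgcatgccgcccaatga
Tef, chr15:81802526-81802571, plus strand: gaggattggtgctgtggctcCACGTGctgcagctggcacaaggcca
Per3, chr4:151044796-151044890, minus strand: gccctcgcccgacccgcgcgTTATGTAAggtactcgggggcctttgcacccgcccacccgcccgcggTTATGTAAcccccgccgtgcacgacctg

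Ciart, with 3 E-boxes in its window, was highest at ZT4, as were Bhlhe41, Per1 and Tef, each with 1 in the window shown. Cry1, also with 1 E-box, was highest at ZT12. Per3, with 2 D-boxes, was highest at ZT4 as was the D-box factor gene Dbp. Over called genes with an entry, an E-box was found in 36 of 247 highest at ZT4 (14.6%), 45 of 380 at ZT8 (11.8%), 18 of 145 at ZT12 (12.4%), 23 of 233 at ZT16 (9.87%) and 36 of 280 at ZT20 (12.9%). D-boxes were found in 4 of the ZT4 genes, 10 of the ZT8 genes and 1 each of the ZT12, ZT16 and ZT20 genes. These are descriptions of letters in these windows.

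The genes with the widest span at each highest time are given for named genes with a mean of at least 2 log2 CPM over the 6 times. At ZT4 these were Dbp, Nr1d1, Per3, Upp2 and Per1, and Ciart, below that level, spanned 5.58. Upp2, which breaks down uridine, was 9.54, 9.14, 9.45 and 9.11 at ZT4 and 4.85, 6.32 and 4.98 at ZT20. The span was 3.93 ± 0.31 log2 (adjusted p = 4.66e-07), and neither time overlapped the other. The sterol exporters were highest at this time: Abcg5 and Abcg8, the paired half-transporters that move cholesterol into bile, were 7.42 ± 0.10 and 7.66 ± 0.03 at ZT4, above all other libraries, and 6.45 ± 0.15 and 6.50 ± 0.21 at their lowest times, ZT16 and ZT12. Ppara, the fatty acid sensor, spanned 0.62 ± 0.13 (ZT4 highest, adjusted p = 0.0163). Klf15, a fasting regulator, and Slc2a2, the hepatocyte glucose transporter, were close in level at ZT4 and ZT8 (7.60 and 7.59, 9.05 and 9.05). Junb was 5.81, 5.10, 5.56 and 5.31 at ZT4 and 3.33, 3.73, 3.21 and 3.78 at ZT8, so it changed between these neighbours by -1.93 ± 0.33 (adjusted p = 0.00679).

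Of all genes that passed, 28.98% had their highest mean at ZT8, a share to set beside the ZT8 counts here and below. By function, ZT8 held the highest mean of 6 of 7 in drug metabolism and 5 of 7 in gluconeogenesis. It held 5 of 8 each in amino acid catabolism and the glucocorticoid response. In fatty acid synthesis it held 2 of 4, and none of these counts was tested against the share over all genes. By the same level of at least 2 log2 CPM, Usp2, Noct, Thrsp, Tsku and Alas1 had the widest spans of the genes highest then. Usp2 was 6.35, 6.72, 6.06 and 6.33 at ZT8 and 1.33, 1.01 and 0.73 at ZT20, a span of 5.34 ± 0.36 (adjusted p = 4.66e-07) and an amplitude of 2.52 ± 0.18. Noct, a phosphatase of NADP(H), was 6.33, 7.37, 6.68 and 7.70 and 2.22, 1.61 and 2.70 at the same times. For both genes, the ZT20 libraries were below all others. Thrsp, a regulator of lipid synthesis, was 10.82, 10.41, 11.27 and 11.18 at ZT8 and 5.68, 8.49 and 4.91 at ZT20, where replicate 2 was the highest by far. Tsku, a secreted liver protein, was 7.75, 8.19, 8.23 and 8.18 at ZT8, above every other library, and 4.17 ± 1.11 at ZT20.

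In sugar metabolism, 9 of 20 tested genes of glycolysis, fructose and glycogen handling passed the time test, 5 of them highest at ZT8, with a median span over the list of 0.73 log2 beside 0.38 for all genes. Pfkfb3, which makes the activator of glycolysis, was 5.28, 5.20, 5.28 and 5.92 at ZT8, above all other libraries, and 3.18, 2.68 and 3.07 at ZT12. Gys2, the liver glycogen synthase, was 8.50 ± 0.13 at ZT8 and 7.07 ± 0.24 at ZT20, and Ppp1r3b, which targets a phosphatase to glycogen, was 9.88 ± 0.11 and 8.40 ± 0.22. Of the gluconeogenesis and fasting list, 7 of 18 passed, 5 highest at ZT8. Slc37a4, the glucose-6-phosphate transporter, was 8.22, 8.26, 8.24 and 8.43 at ZT8, above all others, and 6.83, 7.24 and 7.02 at ZT20, below all others. Gpt2, an alanine aminotransferase, did likewise (9.39 ± 0.19 and 8.32 ± 0.18). Foxo1, the insulin-restrained fasting factor, was 5.97 ± 0.17 at ZT8 and 5.21 ± 0.20 at ZT0 (adjusted p = 0.000211).

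Lipid genes had their highest means at several times. Of lipid droplet, lipolysis and triglyceride genes, 8 of 21 passed, 5 highest at ZT8. With ZT8 replicates 1 and 2 left out, 4 of 21 passed, 3 highest at ZT8. The genes that still passed were Lpin1, Plin5, Dgat2 and Agpat2. Lpin1, a phosphatidate phosphatase on the route to triglyceride, was 8.50, 9.17, 8.89 and 8.71 at ZT8, with no overlap with other times, and 5.22, 6.21 and 5.19 at ZT20, spanning 3.28 ± 0.32 (adjusted p = 1.74e-05). Dgat2, the last step of triglyceride synthesis, was 9.71 ± 0.12 and 8.92 ± 0.12, and Agpat2 was highest at ZT12 (8.47 ± 0.34) and lowest at ZT4 (7.72 ± 0.29). Of 21 fatty acid synthesis genes, 4 passed the time test (19.05%, beside 12.5% of all genes). The cosine test called 8 of them (38.1%, beside 17.7% of all genes). The median span of the list was 1.49 log2, beside 0.38 for all genes. Srebf1, the lipogenic transcription factor, went from 10.07 ± 0.20 at ZT8 to 8.40 ± 0.28 at ZT20. Aacs, an acetoacetyl-CoA synthetase, had time means between 6.75 and 7.57 from ZT0 to ZT16, with libraries from 6.07 to 8.10, and was 4.42, 5.98 and 3.82 at ZT20, below all other libraries. Insig2, which holds SREBP in the endoplasmic reticulum, had another course: 6.60, 6.96, 6.53 and 6.93 at ZT4, below all others, and 9.18 ± 0.31 at ZT16 (adjusted p = 6.32e-07).

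Drug metabolism genes passed in 7 of 23 cases, 6 of them highest at ZT8. Por, which feeds electrons to all microsomal cytochromes P450, was 9.04, 9.84, 9.28 and 9.23 at ZT8, above all others, and 6.52, 6.26 and 6.65 at ZT20, a span of 2.87 ± 0.32. Alas1, the first step of haem synthesis, was 9.53, 10.52, 10.09 and 9.68 at ZT8 and 6.57, 4.88 and 6.89 at ZT20, with the ZT20 libraries below all others (span 3.84 ± 0.47, adjusted p = 0.000151). Nr1i2, the pregnane X receptor, was 6.86 ± 0.15 at ZT8 and had means between 6.14 and 6.39 at the other times. Cyp2a5 was 9.99 ± 0.43 and 7.73 ± 0.06, a value that is uncertain because close relatives in the Cyp2a family can share reads.

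Amino acid and urea cycle genes passed in 8 of 27 cases (29.6%) and NAD synthesis genes in 3 of 12 (25%), beside 12.5% of all genes. Asl, of the urea cycle, was 9.96, 9.99, 10.06 and 10.18 at ZT8 and 8.48, 8.66 and 8.55 at ZT20. Prodh, which degrades proline, was 8.61 ± 0.13 and 7.40 ± 0.31 at these times. Cbs, which opens the transsulfuration route, ran the other way, 8.49 ± 0.17 at ZT8 and 9.46 ± 0.09 at ZT20. Nampt, the rate-limiting enzyme of NAD salvage, was 6.71, 7.27, 6.92 and 7.09 at ZT8, above all others, and 5.41, 5.12 and 5.10 at ZT20. Nmrk1, a nicotinamide riboside kinase, spanned 2.12 ± 0.28 between the same times (adjusted p = 0.000262), while Nmnat3 was highest at ZT4 (3.38 ± 0.22) and lowest at ZT12 (2.38 ± 0.21).

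Glucocorticoid response genes passed in 8 of 13 cases, 5 highest at ZT8 and 3 at ZT4, with a median span over the list of 1.28 log2. Fkbp5, a co-chaperone of the receptor and one of its targets, was 3.96, 5.44, 4.76 and 3.96 at ZT0, 5.26, 4.35, 4.85 and 5.28 at ZT4, 6.30, 7.11, 6.59 and 6.88 at ZT8, 4.41, 4.42 and 5.59 at ZT12, 4.76, 4.74 and 3.81 at ZT16, and 4.20, 4.37 and 4.03 at ZT20. Its ZT8 libraries lay above all others, and the span was 2.52 ± 0.36 (adjusted p = 0.000496). Tsc22d3 was 7.48 ± 0.49 at ZT8 and 5.89 ± 0.12 at ZT20, and Sds, a serine dehydratase, 8.10 ± 0.43 at ZT4 and 6.44 ± 0.38 at ZT12. Errfi1, a brake on EGF receptor signalling, was 10.54 ± 0.16 at ZT8 and 9.26 ± 0.18 at ZT20. Zbtb16 was 6.19, 5.91, 5.78 and 5.75 at ZT8, above all others, and 3.53, 3.63 and 3.18 at ZT12. Without the 2 ZT8 libraries Zbtb16 did not pass (adjusted p = 0.15).

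Heat shock chaperone genes passed in 11 of 18 cases, 7 highest at ZT8 and 4 at ZT12. Without ZT0 replicate 2, 15 passed (83.3%, beside 16.3% of all genes). Leaving out ZT8 replicates 1 and 2, 4 of 18 passed (22.2%, beside 7.44% of all genes), with 2 libraries left at ZT8. Hspa1b, an inducible Hsp70, was 1.24, 2.70, 1.22 and 1.51 at ZT0, 0.46, 0.72, 0.69 and 0.94 at ZT4, 3.95, 2.96, 3.40 and 4.17 at ZT8, 2.96, 0.60 and 1.71 at ZT12, 1.80, 2.30 and 1.64 at ZT16, and 1.96, 1.50 and 1.90 at ZT20. All ZT8 libraries were above those of ZT0, ZT4, ZT16 and ZT20, and 1 ZT12 library came up to the lowest of them. Dnajb1, an Hsp70 partner, was 5.03 ± 0.17 at ZT8 and 4.05 ± 0.13 at ZT4, and Fkbp4 was 7.86 ± 0.19 at ZT12 and 7.09 ± 0.12 at ZT4. Hspa1a had the same course at a lower level (0.78 ± 0.91 at ZT8), but it and Hspa1b are near-identical copies whose reads the counting could split. Cirbp, the cold-inducible RNA-binding protein, was highest at ZT20 (4.54 ± 0.07) and lowest at ZT8 (3.62 ± 0.14). Of its list, 1 of 7 genes passed (14.3%, near the 12.5% of all genes). Without the 2 ZT8 libraries, neither Hspa1a nor Cirbp passed (adjusted p = 0.0722 and 0.102).

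**Figure D4:**
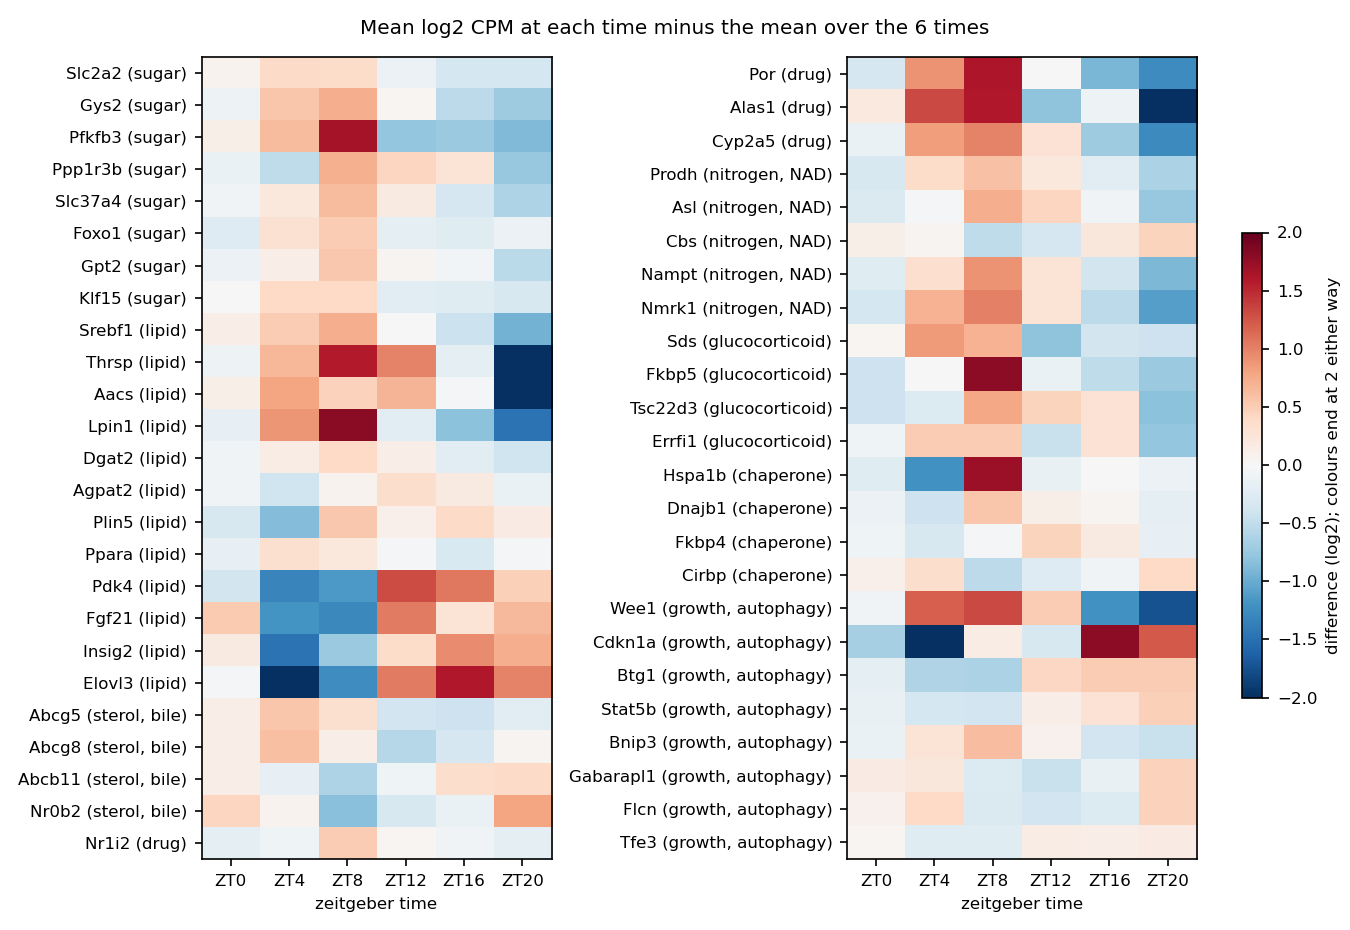
Difference in log2 units of each time mean from the mean over the 6 times for 49 named genes, grouped by function, with red above and blue below. Red at ZT8 and blue at ZT20 mark most sugar, drug, nitrogen and NAD genes, such as Pfkfb3, Por and Nampt, and the reverse, blue at ZT4 and ZT8, marks Pdk4, Insig2, Elovl3 and Btg1.

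At ZT12, Nat8f5, Cry1, Pdk4 and Fgf21 were among the widest spans at that level. Nat8f5, of the Nat8 acetyltransferase family, was 5.06, 5.30 and 5.56 at ZT12, above all others, and 1.85, 2.81 and 0.95 at ZT20, a value that is uncertain where family members share reads. Pdk4, which blocks pyruvate entry into oxidation, was 4.42, 5.64 and 5.22 at ZT12 and 2.84, 2.46, 2.80 and 1.79 at ZT4 (span 2.62 ± 0.45, adjusted p = 0.00124). Fgf21, a fasting hormone of the liver, was 3.27, 4.77 and 3.87 at ZT12 against 0.85, 1.06, 1.76 and 3.28 at ZT4 and 1.99, 0.28, 2.21 and 2.10 at ZT8, and its times overlapped. Of 27 fatty acid oxidation and ketogenesis genes 4 passed (14.8%, beside 12.5% of all genes), the fourth being Etfdh with 0.46 ± 0.12 between ZT20 and ZT8. In cholesterol synthesis and uptake, 1 of 24 passed. Without ZT0 replicate 2, 5 of 24 passed (20.8%, beside 16.3% of all genes). Atf4, a stress transcription factor, was 6.79 ± 0.15 at ZT12 and 6.18 ± 0.15 at ZT8, the single pass among 20 unfolded protein response genes.

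At ZT16 the widest spans at that level were those of Arntl, Cdkn1a, Elovl3, Loxl4 and Clic3, while Npas2, below it, spanned 6.89. Elovl3 was 7.39, 8.89, 7.96 and 8.44 at ZT0, 5.70, 6.02, 5.65 and 6.05 at ZT4, 6.23, 6.92, 7.51 and 7.25 at ZT8, 9.52, 9.12 and 9.11 at ZT12, 9.55, 10.01 and 9.89 at ZT16, and 8.89, 8.51 and 10.23 at ZT20. The ZT4 libraries were below all others, and the amplitude was 1.93 ± 0.18 with a peak at 16.8 ± 0.358 h. Loxl4 was 4.61, 3.64 and 4.56 at ZT16 and 3.86, 3.28 and 3.87 at ZT20, all above the other times, where it did not exceed 2.38 (amplitude 1.97 ± 0.14). Cdkn1a, which encodes p21, was 5.44, 3.85 and 4.63 at ZT16 and 0.18, 0.87, 0.89 and 0.66 at ZT4, and the ZT4 libraries overlapped no other time. Wee1, which delays mitosis, was 4.69 ± 0.17 at ZT8 and 1.62 ± 0.40 at ZT20, and Btg1, an antiproliferative gene, was 5.91 ± 0.12 at ZT16 and 4.76 ± 0.30 at ZT8. These were the 3 of 17 cell cycle and growth arrest genes that passed (17.6%, beside 12.5% of all genes). Clic3 was 3.59 ± 0.28 at ZT16 and 0.27 ± 0.98 at ZT4. Chka was 7.51 ± 0.17 at ZT16 and 4.36 ± 0.25 at ZT4, and Gldc, of glycine cleavage, 8.63, 8.56 and 8.47 and 6.70, 6.99, 6.96 and 7.18, with its ZT16 libraries above and its ZT4 libraries below all others.

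At ZT20 the widest spans at that level were those of Depp1, Spon2, Egr1, Rnf125 and Rfx4, each of them lowest at ZT8. Spon2, a secreted matrix protein, was 3.27, 2.42, 4.21 and 4.00 at ZT0, 2.05, 1.90, 2.0 and 2.48 at ZT4, 1.67, 0.67, 0.53 and 1.23 at ZT8, 2.90, 3.92 and 2.83 at ZT12, 4.79, 4.12 and 4.24 at ZT16, and 4.96, 4.84 and 4.34 at ZT20. Its ZT8 libraries were below all others, and the amplitude was 1.77 ± 0.16 at 18.8 ± 0.354 h. Rnf125, a ubiquitin ligase, was 7.63, 7.33 and 7.66 at ZT20 and 4.78, 5.06, 4.40 and 5.04 at ZT8. Rfx4 was 3.44 ± 0.25 and 1.22 ± 0.06, and Depp1 7.10 ± 0.41 and 3.27 ± 1.16. Egr1, an immediate early gene, was 6.03, 4.53 and 6.59 at ZT20 and 2.93, 2.92, 2.20 and 2.89 at ZT8 (adjusted p = 0.0201), while without the 2 ZT8 libraries its adjusted p was 0.0706. Junb and Egr1 were the 2 of 16 immediate early genes that passed, 12.5%, the same share as over all genes.

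Bile acid genes passed in 8 of 20 cases, and those highest at ZT20 differed from the sterol exporters of ZT4. Nr0b2, the receptor that represses bile acid synthesis, was 6.47, 5.75 and 6.36 at ZT20 and 4.16, 5.05, 4.41 and 4.68 at ZT8 (span 1.62 ± 0.22, adjusted p = 0.000481). Abcb11, the bile salt export pump, was 9.75 ± 0.19 and 8.74 ± 0.18. Autophagy genes passed in 7 of 19 cases, 4 of them highest at ZT20, as were 21.5% of all genes that passed. Gabarapl1, of the autophagosome coat, was 8.23 ± 0.14 at ZT20 and 7.33 ± 0.09 at ZT12, Flcn, which acts on lysosomal nutrient signalling, 5.54 ± 0.17 and 4.70 ± 0.42, and Tfe3, a lysosomal transcription factor, spanned 0.41 ± 0.08 between ZT20 and ZT4. Bnip3, a mitophagy receptor, was instead highest at ZT8 (6.78 ± 0.18) and lowest at ZT20 (5.74 ± 0.13). In the growth hormone axis 3 of 12 genes passed (25%, beside 12.5% of all genes). They were Stat5b (6.74 ± 0.06 at ZT20, 5.89 ± 0.16 at ZT8) and Stat5a (0.73 ± 0.19, ZT20 highest), which carry the signal, and Igfbp4 (0.63 ± 0.12, ZT8 highest). Iron genes passed in 2 of 14 cases (14.3%, near the 12.5% of all genes). Slc11a2, an iron transporter, was 5.99 ± 0.07 at ZT20 and 5.17 ± 0.18 at ZT4, and Slc39a14 8.47 ± 0.11 at ZT8 and 7.78 ± 0.11 at ZT12.

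With all 21 libraries, only 14 called genes were highest at ZT0, against 155 without ZT0 replicate 2. Among the 14, those with the widest span at that level were Neat1, Cldn2, Pspc1, Ppfibp1 and Rbm12. Without ZT0 replicate 2, Nr1d1 was highest at ZT0, with a span of 5.34 log2. Neat1, the long non-coding RNA that builds nuclear paraspeckles, was 8.94, 8.78, 9.16 and 9.03 at ZT0, 8.26, 8.95, 8.07 and 8.34 at ZT4, 7.63, 6.99, 7.89 and 7.15 at ZT8, 8.71, 8.64 and 8.79 at ZT12, 8.06, 8.84 and 8.39 at ZT16, and 8.47, 8.83 and 8.99 at ZT20. Its ZT8 libraries lay below all others, and the 4 ZT0 libraries, replicate 2 included, stayed between 8.78 and 9.16. Pspc1, a protein of the same bodies, was 3.10 ± 0.25 at ZT0 and 2.37 ± 0.15 at ZT16 (adjusted p = 0.0154). Cldn2, a tight junction protein, was 7.19 ± 0.18 at ZT0 and 6.33 ± 0.27 at ZT8. Ppfibp1 and Rbm12 spanned 0.69 ± 0.16 and 0.58 ± 0.15 (adjusted p = 0.0245 and 0.0495), and neither passed without the 2 ZT8 libraries (adjusted p = 0.127 and 0.119).

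Several functions stayed near or below the share of all genes in the time test. Among 22 cytosolic ribosomal protein genes the lowest adjusted p was 0.468 for time and 0.13 for the cosine, and their median span was 0.19 log2. Ribosome biogenesis had 3 of 20 passes (15%, beside 12.5% of all genes), those of Ncl, Nop2 and Rrs1, all highest at ZT8, with spans of 0.33 to 0.72. Nuclear respiratory chain genes had 1 of 21 (Cyc1, 0.33 ± 0.08), acute phase genes 1 of 21 (Cebpd, 1.38 ± 0.37, ZT8 highest) and the unfolded protein response 1 of 20. By the cosine test 6 of 21 respiratory chain genes passed (28.6%, beside 17.7% of all genes), and without ZT0 replicate 2, 11 of 21 (52.4%, beside 24.1%). The acute phase list had a median span of 0.99 log2 and 6 passes of the cosine test of 21 (28.6%, beside 17.7% of all genes). Without the 2 ZT8 libraries, 1 of 21 acute phase and 2 of 21 respiratory chain genes passed the cosine test (4.76% and 9.52%, beside 12.7%). In the time test, none of the passes in the ribosome biogenesis, respiratory chain, acute phase and unfolded protein response lists remained without the 2 ZT8 libraries. No gene of the mitochondrial genome was among the genes tested.

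Departures from a cosine were tested as the joint effect of 12 h and 8 h components. With 6 times, these 3 terms are all that remains beside the mean and the 24 h cosine. Only 5 genes passed (0.0372%), while 1161 had an unadjusted p under 0.05 and limma-voom on the recovered reads also called 5. The named ones were Rab36, Leng8 and Pptc7, and the other 2 were unnamed gene models. Without ZT0 replicate 2, 6 genes passed, without ZT20 replicate 2, 12, and without the 2 ZT8 libraries none did. The adjusted p of Rab36, Leng8 and Pptc7 was then 0.276 for each, against 0.0142, 0.0142 and 0.0261 with all libraries.

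Rab36, which encodes a small GTPase (chromosome 10, 75037058 to 75054748, plus strand, GRCm38, GENCODE M21), was 3.59, 3.19, 3.61 and 3.28 at ZT0, 2.53, 3.03, 2.50 and 2.59 at ZT4, 1.55, 1.54, 1.91 and 1.64 at ZT8, 3.31, 3.81 and 3.74 at ZT12, 3.48, 3.50 and 3.63 at ZT16, and 3.41, 3.80 and 4.09 at ZT20. It was low at ZT8 alone, below all other libraries, between the extremes at ZT4, and level from ZT12 to ZT0; the 24 h component held 69.7% of the variation between its means, the 12 h component 19.9% and the 8 h component 10.5%. Leng8 (chromosome 7, 4137039 to 4148177, plus strand) was 6.66, 6.58, 6.72 and 6.81 at ZT0, 6.80, 6.84, 6.80 and 6.69 at ZT4, 6.21, 6.06, 6.27 and 6.28 at ZT8, 6.82, 6.82 and 6.64 at ZT12, 6.61, 6.71 and 6.61 at ZT16, and 6.76, 6.67 and 6.79 at ZT20. It dipped at ZT8 only, by 0.58 ± 0.07 from its ZT4 mean, and its components were nearly even at 27%, 34.7% and 38.3%. The cosine test missed it (adjusted p = 0.134). Pptc7, a mitochondrial phosphatase (chromosome 5, 122284365 to 122324281, plus strand), was 4.18, 4.34, 4.14 and 3.85 at ZT0, 4.83, 4.74, 4.72 and 4.77 at ZT4, 5.02, 5.27, 5.04 and 4.94 at ZT8, 4.06, 3.98 and 3.87 at ZT12, 4.13, 3.99 and 4.10 at ZT16, and 3.94, 3.98 and 4.17 at ZT20. It formed a plateau at ZT4 and ZT8 on a flat base, with ZT8 above all other libraries.

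The next 8 genes described here, by unadjusted p, did not pass (adjusted p from 0.0729 to 0.14), and all of them passed the time test. Mug-ps1, a pseudogene that can share reads with the Mug genes, and Rfx5, a transcription factor of antigen presentation, were at 6.22 ± 0.26 and 2.75 ± 0.24 at ZT8, below all their other libraries. St3gal5, the GM3 synthase, and Tns1, a focal adhesion protein, were above all others at ZT8 (7.96, 8.31, 8.10 and 8.33, and 8.15, 8.37, 8.11 and 8.05). Plin5, which coats lipid droplets at mitochondria, was 4.99, 5.93, 5.25 and 5.39 at ZT0, 4.72, 4.81, 4.77 and 5.10 at ZT4, 6.10, 6.28, 6.41 and 6.22 at ZT8, 5.80, 5.87 and 5.76 at ZT12, 6.36, 5.94 and 5.99 at ZT16, and 6.31, 5.45 and 5.87 at ZT20. It climbed from its lowest to its highest mean between ZT4 and ZT8, and its ZT12 libraries lay below those of ZT8. Baiap2 (4.33 to 5.78) and Hexim1, an inhibitor of transcription elongation (4.87 to 5.79), made the same climb from ZT4 to ZT8. For Hspa1b the 24 h component held 21.4% of the variation between means, and the shape test gave an adjusted p of 0.0866.

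**Figure D5:**
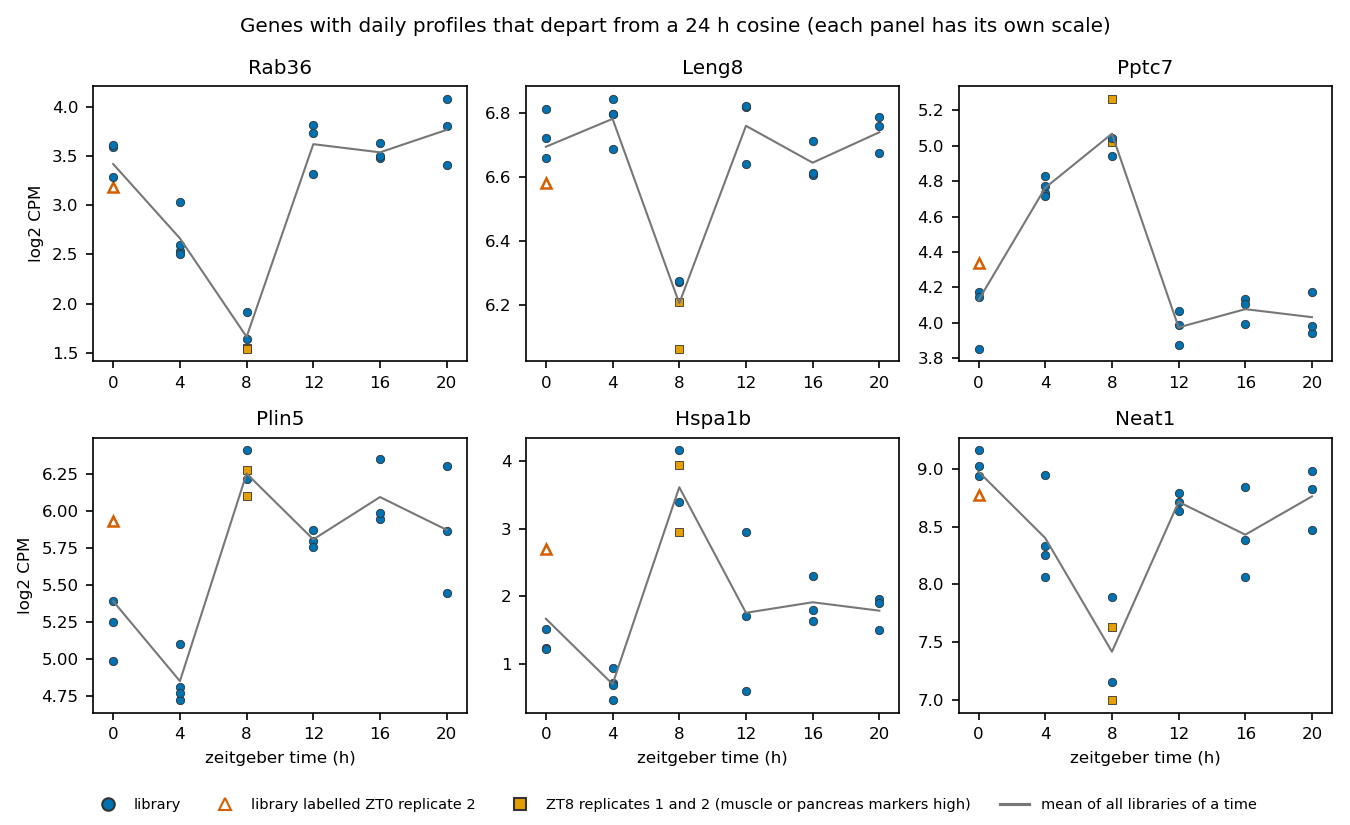
Log2 CPM in each of the 21 libraries against zeitgeber time in hours for 6 genes whose means depart from a single cosine, with a line through the means; Rab36, Leng8 and Pptc7 passed the shape test and Plin5, Hspa1b and Neat1 did not. Rab36, Leng8 and Neat1 dip at ZT8, where all 4 of their libraries are below all others, and Pptc7 is raised at ZT4 and ZT8.

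A last count, without a test, took genes whose libraries at 1 time all lay above or all below those of every other time. There were 231 such genes above (1.72%) and 261 below (1.94%) of 13455. ZT8 had 198 in all, 92 of them below. ZT4 had 43 above and 80 below, ZT20 35 and 52, ZT12 24 and 25, and ZT16 23 and 11. ZT0 had 0 and 1, or 10 and 15 with replicate 2 left out. Times with 4 libraries face a stricter condition than those with 3. Fkbp5, Lpin1, Por, Nampt and St3gal5 were among the genes above all others at ZT8, and Spon2, Rnf125, Egr1 and Cldn2 among those below.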

How the data were processed

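RNA from mouse liver was sequenced (poly-A selected, stranded, paired-end), per the labels' protocols. Reads were aligned with STAR and counted with featureCounts (Subread 1.6.2) on mm10, per the submitters' processing notes, and the authors deposited log2 CPM values for 15398 genes. Their lowest value, -3.61, corresponds to 0 reads in the recovered counts. Multiples of the value of 1 read gave back whole reads (within 0.05) for 99.5% to 99.7% of values, with 13970000 to 32830000 reads per library. All 27 pairs of replicates differed beyond sampling noise (chi-square per degree of freedom at least 23.35). Symbols and positions came from GENCODE mouse release 21 (15379 genes matched) and promoters from RefSeq.

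Genes with 1 CPM or more in 3 libraries were tested with limma 3.58.1 (R 4.3.3) on the deposited log2 CPM, with a trend in the prior variance: a moderated F test over the 6 times, a 24 h cosine and sine, the 12 h and 8 h remainder, and each neighbouring step. Means carry the SD and differences the SE. P-values were Benjamini-Hochberg adjusted over all 13455 genes at 0.05. The fits were tested on simulated data. Named were the 15 clock genes, up to 4 genes with the smallest p of each function list, the 5 widest spans per highest time, the 8 largest amplitudes, the 12 smallest shape p-values and the 2 largest rises and falls per step, unnamed gene models left out and, outside the clock and function lists, with a mean of at least 2 log2 CPM. Members and lists were chosen with earlier results of these data known. Results for some named genes and 1 searched motif are not reported here. Alternatives changed the filter, scale, weights, covariates and libraries. Tables were handled with Python 3.11.15, pandas 2.3.3 and numpy 2.4.6.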

Additional observations from a re-analysis of the deposited data

Results flagged for a closer look

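Among the named genes in the times with 4 libraries, 19 of 336 groups had 1 library far from the other 3. Chance marks about 1 in 20 such groups. Each gene is given with the library's log2 CPM, that of the nearest other library, and the gap between them as a fraction of the range of the group.

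ZT0 replicate 2 accounted for 5. It was the lowest of its time for Nr1d1 (2.19, next 6.75, 0.857), Abcg8 (6.48, next 7.39, 0.920), Sds (6.41, next 7.48, 0.874), Nmnat3 (2.27, next 3.28, 0.928) and Rfx5 (3.13, next 3.47, 0.957). These genes include a repressor of the clock, a sterol exporter, an amino acid enzyme and an NAD enzyme. ZT8 replicate 1, rich in muscle markers, was the lowest for Abcg5 (6.94, next 7.24, 0.832) and Tsku (7.75, next 8.18, 0.893). ZT8 replicate 2, rich in pancreas markers, was the lowest for Per2 (6.85, next 7.10, 0.865) and Fgf21 (0.28, next 1.99, 0.889). ZT8 replicate 3 was the lowest for Nr1d2 (5.98, next 6.24, 0.847) and Egr1 (2.20, next 2.89, 0.953). In ZT8 replicate 4 the highest values were those of Pfkfb3 (5.92, next 5.28, 0.897), Gldc (8.01, next 7.55, 0.845) and Chka (6.04, next 5.47, 0.875), and the lowest that of Rfx4 (1.13, next 1.25, 0.841). At ZT4, replicate 1 was the lowest for Bhlhe41 (1.93, next 3.29, 0.969), replicate 3 the lowest for Errfi1 (10.21, next 10.60, 0.851), and replicate 4 the highest for Ppp1r3b (9.43, next 8.46, 0.875). At ZT0, replicate 3 was the lowest for Thrsp (8.25, next 9.50, 0.906).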

How the results depend on the processing

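Among the named genes 0 reversed under any of 14 alternatives, and 54 kept their call in every one. Of these alternatives, 3 were chosen after seeing the data: without ZT0 replicate 2, without it and the 2 ZT8 libraries, and without ZT20 replicate 2. Step results are given here as percent of the genes tested that were called. With the spread shared over all libraries of the series, 0 genes passed for shape, and the steps ZT0 to ZT4, ZT8 to ZT12, ZT12 to ZT16 and ZT20 to ZT0 called 0.0149%, 1.54%, 0% and 0%, against 0.922%, 3.49%, 0.0297% and 0.0892%. Limma-voom on the recovered reads called 0.052% for ZT20 to ZT0. With the library number as a covariate, 3 genes passed for shape. Without ZT8 replicates 1 and 2, which leaves 2 libraries at ZT8, 1001 genes passed for time and 0 for shape, the steps ZT4 to ZT8, ZT8 to ZT12 and ZT12 to ZT16 called 0.282%, 0.758% and 0.0149%, and 1158 genes stood apart at 1 time. Leaving out ZT0 replicate 2 as well, 0 passed for shape, the steps ZT8 to ZT12, ZT16 to ZT20 and ZT20 to ZT0 called 1.26%, 0.0743% and 0.149%, and 1336 genes stood apart. Fewer libraries make standing apart easier.

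Leaving out replicates of 1 number, ZT0 replicate 2 or ZT20 replicate 2 gave 327 to 2193 genes for time (lowest without replicate 3, highest without ZT0 replicate 2), 733 to 3237 for the 24 h rhythm, 0 to 12 for shape, and 595 to 2295 standing apart. The steps ranged over 0.0966% to 1.08% (ZT0 to ZT4), 0% to 4.89% (ZT4 to ZT8), 0.877% to 4.21% (ZT8 to ZT12), 0% to 0.0818% (ZT12 to ZT16), 0% to 0.112% (ZT16 to ZT20) and 0% to 0.297% (ZT20 to ZT0). Why these counts changed was not tested. No paired analysis was possible because the titles carry no replicate number, so none pairs libraries across times. Because the numbers were assigned here, leaving out 1 of them removes an arbitrary set of libraries. Depth limits Npas2, Hspa1a and other genes near the lowest deposited value.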
